A study of Mus musculus with 9 samples.

Results

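After 1 h of lipopolysaccharide (LPS), macrophages from MyD88-deficient mice (MyD88 KO) were compared with macrophages from wild-type mice by the levels their transcripts reached. The comparison uses 2 of the 9 arrays of the study, 1 of MyD88 KO and 1 of wild type, both from cells that had received 100 ng/ml LPS for 1 h. A level is the log2 value that RMA, a method that summarises the probes of an Affymetrix array, gave to a probe set, and a difference is the MyD88 KO level minus the wild-type level on that scale. Each gene was read from 1 probe set, the one with the highest mean over the 9 arrays, and 10032 of 12394 genes reached a level of 6 on at least 1 array and were analysed. All 9 groups held macrophages elicited in the peritoneal cavity by thioglycollate, an irritant, from MyD88 KO mice, from mice lacking the adaptor TRIF (TRIF KO) and from wild-type mice, each at 0, 1 and 4 h of the same LPS dose. Each group had 1 array. The number of mice behind an array, whether mice were pooled, and the genetic background and age of the strains were not stated in the sources used here.

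LPS is sensed by Toll-like receptor 4 (TLR4), which works with the co-receptors CD14 and MD-2. MyD88 is the adaptor that links the receptor to kinases of the IRAK family, and through TRAF6 and TAK1 to the transcription factor NF-kB and to MAP kinases. TRIF is the adaptor of the receptor's other branch, which leads to interferon regulatory factors and also to NF-kB. In macrophages the first transcripts to appear after LPS are those of immediate early transcription factors, of cytokines and chemokines, and of inhibitors that limit the same signals.

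At 1 h, 24 genes were at least 2-fold lower in MyD88 KO than in wild type (0.239% of the genes analysed) and 12 were at least 2-fold higher (0.12%). Of these, 6 were at least 4-fold lower and 2 at least 4-fold higher. The lowest were Nfkbiz, Cxcl1, Tnf, Cxcl2, Il1b and Tnfsf9, all of them genes of the inflammatory response, and the highest were Gdpd3 and Cap1, which differed by less than 2-fold between 0 and 1 h in each genotype. After each array was centred on 9 reference transcripts, 35 genes were 2-fold lower and 9 higher, because that scaling shifted every difference by -0.15. The median difference over all genes was 0.01 as deposited and -0.15 after this centring, and 99% of genes differed by less than 0.69 in either direction. With 1 array a side these differences have no replicate check and no p-value. The lower genes closest to the 2-fold limit were Cd200 and Ncapg2 (-1.02 and -1.005) inside it and Gdap10 and Calml4 (-0.99 and -0.97) outside it. On the higher side they were Selp and Itgax (1.02 and 1.05) inside it and Gda and Ifit2 (0.98 and 0.97) outside it.

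**Figure D1:**
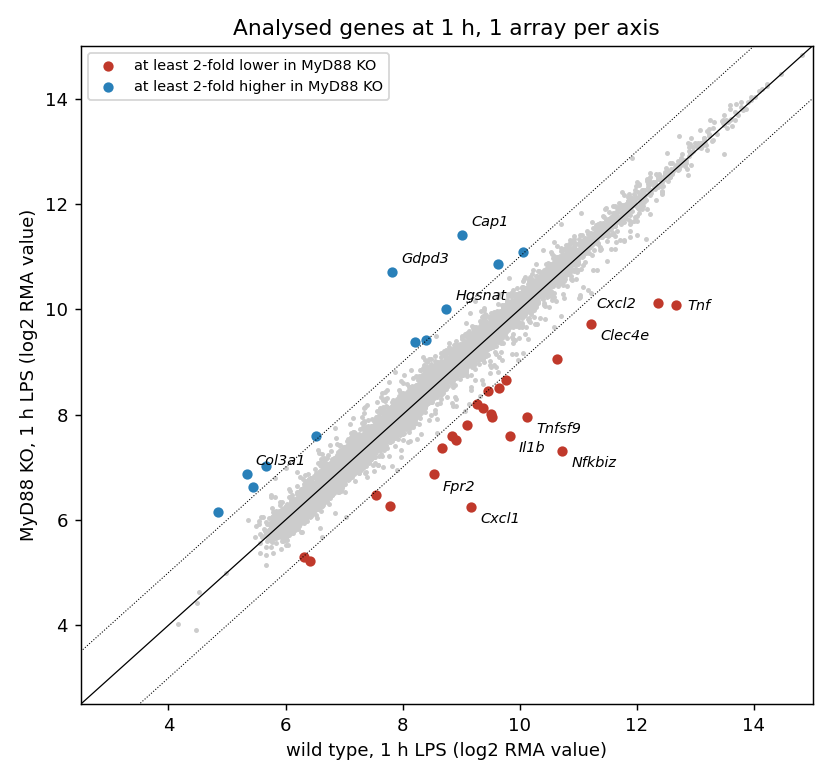
Level at 1 h of LPS of each of the 10032 analysed genes in MyD88 KO (vertical axis) and wild type (horizontal axis), both as log2 RMA values from 1 array. The solid line marks equal levels and the dotted lines 2-fold differences; the 24 red genes lie below the lower dotted line and the 12 blue genes above the upper one, with Nfkbiz farthest below and Gdpd3 farthest above.

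The promoters of 4 lower genes are shown because their transcripts were the lowest among genes that were induced in TRIF KO and whose promoter window held a searched motif. Windows run from 250 bases before to 50 after the annotated start, from RefSeq on GRCm38.p6. The windows of Cxcl1 and Cxcl2, neutrophil-attracting chemokines, lie at chr5:90890995-90891294 and chr5:90903649-90903948, both on the plus strand. Pde4b, a phosphodiesterase that breaks down cyclic AMP, has 4 windows, of which the one at chr4:102569810-102570109 on the plus strand is shown. Windows with a searched motif were ranked by their number of NF-kB matches and the first was taken, so that window was chosen for its match. Il1a, the cytokine interleukin 1 alpha, lies on the minus strand at chr2:129309923-129310222. Capitals mark the matched letters.
Cxcl1 promoter: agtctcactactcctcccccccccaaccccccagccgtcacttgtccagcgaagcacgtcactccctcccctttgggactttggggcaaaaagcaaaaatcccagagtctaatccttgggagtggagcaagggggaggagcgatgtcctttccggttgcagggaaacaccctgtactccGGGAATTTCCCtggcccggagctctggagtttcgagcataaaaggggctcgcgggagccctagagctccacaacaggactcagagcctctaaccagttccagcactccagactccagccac
Cxcl2 promoter: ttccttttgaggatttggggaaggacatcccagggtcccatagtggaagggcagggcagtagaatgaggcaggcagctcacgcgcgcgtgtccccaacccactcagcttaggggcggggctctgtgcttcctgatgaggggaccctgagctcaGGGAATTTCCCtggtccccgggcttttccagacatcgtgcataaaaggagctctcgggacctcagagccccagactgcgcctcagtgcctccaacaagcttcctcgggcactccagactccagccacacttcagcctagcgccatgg
Pde4b promoter: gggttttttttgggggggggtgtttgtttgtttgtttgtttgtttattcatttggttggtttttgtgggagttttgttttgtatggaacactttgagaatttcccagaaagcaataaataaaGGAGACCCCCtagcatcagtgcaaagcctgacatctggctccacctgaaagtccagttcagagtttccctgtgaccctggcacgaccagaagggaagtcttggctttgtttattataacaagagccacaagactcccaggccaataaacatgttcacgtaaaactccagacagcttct
Il1a promoter: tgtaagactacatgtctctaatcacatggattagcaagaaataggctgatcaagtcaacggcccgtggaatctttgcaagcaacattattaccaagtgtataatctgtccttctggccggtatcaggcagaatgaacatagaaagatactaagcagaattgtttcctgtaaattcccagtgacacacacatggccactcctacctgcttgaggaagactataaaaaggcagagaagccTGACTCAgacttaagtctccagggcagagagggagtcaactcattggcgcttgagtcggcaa
The capitals in Cxcl1 and Cxcl2 are the same run of 11 letters, GGGAATTTCCC, which holds 2 overlapping matches of the NF-kB motif and begins 71 bases before the start in Cxcl1 and 97 before it in Cxcl2. In Pde4b the NF-kB match is GGAGACCCCC, 128 bases before the start, and in Il1a the match is TGACTCA, an AP-1 motif (TGANTCA), 12 bases before it. The NF-kB motif, searched on both strands, was in a window of 3 of 10 lower genes that were not 2-fold lower at 0 h (Cxcl1, Pde4b and Tnfaip3) and of 3 of 11 that were (Cxcl2, Tlr2 and Nfkbie). It was in 1 of 11 higher genes (Gnb1) and in 6.52% of the 8083 analysed genes with a window. The AP-1 motif was in 3 of 10, 3 of 11 and 4 of 11 of the same groups, against 7.11% of all. A match describes letters only, and its use was not measured.

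The arrays before LPS, which the comparison at 1 h does not use, divide the lower genes. In unstimulated cells 17 genes were at least 2-fold lower in MyD88 KO than in wild type (0.169%) and 8 at least 2-fold higher (0.0797%). Of the 24 genes lower at 1 h, 12 had also been 2-fold lower at 0 h: Cxcl2, Fpr2, Acod1, Clec4e, Fblim1, C77080, Gpr84, Lcn2, Ctse, Tlr2, Nfkbie and Cd200. Their median difference was -1.36 at 0 h, -1.27 at 1 h and -1.02 at 4 h. The remaining 12 were Nfkbiz, Cxcl1, Tnf, Il1b, Tnfsf9, Socs3, Zc3h12a, Pde4b, Il1a, Icam1, Tnfaip3 and Ncapg2, with medians of -0.30 at 0 h, -1.54 at 1 h and -2.01 at 4 h. In 14 of the 24 genes the MyD88 KO level after 1 h of LPS was below the wild-type level before LPS. These were the genes already 2-fold lower at 0 h, all but Cxcl2, and from the other class Zc3h12a, Icam1 and Ncapg2. At 4 h all 24 were again below wild type, 17 of them at least 2-fold.

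**Figure D2:**
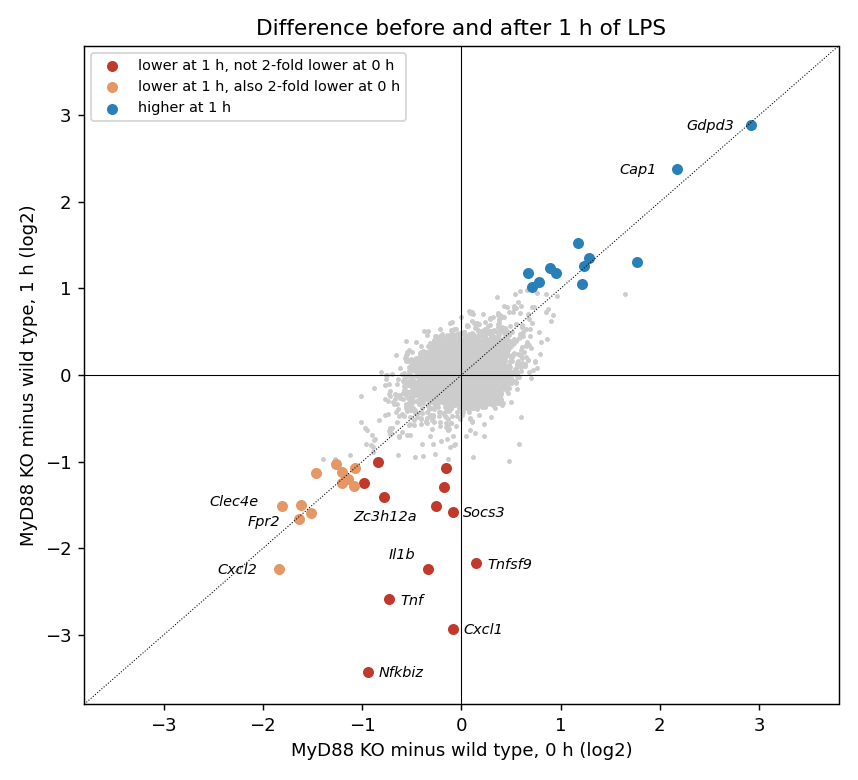
MyD88 KO minus wild type at 1 h of LPS (vertical axis) against the same difference at 0 h (horizontal axis), both log2, for the 10032 analysed genes. Points on the dotted diagonal differ equally before and after LPS. The 12 orange genes lie near the diagonal. The 12 red ones lie below it, Icam1 and Ncapg2 by little, with Tnfsf9 and Cxcl1 near 0 on the horizontal axis. The 12 blue genes lie near the diagonal on the positive side.

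Arrays that the comparison does not use gave a test of these genes. A limma fit of genotype and time to the 7 arrays other than MyD88 KO and wild type at 1 h, two-sided, with Benjamini-Hochberg adjustment over all 10032 genes, called 116 genes lower (1.16%) and 162 higher (1.61%) in MyD88 KO. It called 14 of the 24 lower genes lower and 12 of the 12 higher genes higher, and the sign was the same for all 36. Of the 12 genes already 2-fold lower at 0 h it called 10, all but Acod1 and C77080 (limma, adjusted p = 0.0705 and 0.067), from which nothing is read because 0 h values in this fit also chose that class. Of the other 12 it called Nfkbiz, Pde4b, Icam1 and Ncapg2. The 0 h values in this fit set the limit of that class as well, so the calls of the 2 classes are not compared. The fit rests on the 0 and 4 h arrays, so it tests a shift carried by those times and not the difference at 1 h. Nothing in the labels says that arrays came from separate mice or cultures. The p-values thus measure only the spread between arrays around the fit. That spread may be technical, and it also holds any genotype difference that changes with time. Cxcl1, with differences of -0.08 at 0 h and -4.12 at 4 h, had an SE of 0.727. A gene of this kind can go uncalled despite a large difference, so a missing call is not read as no difference.

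The fit to all 9 arrays, which tests the average over the times and includes the arrays compared here, called 269 genes lower (2.68%) and 457 higher (4.56%), or 317 lower and 201 higher after centring on the reference transcripts. All 36 members were among them, from which nothing is read because their 1 h values chose them. For the gene lists below the calls of the 7-array fit come first, and those of the 9-array fit, which rest in part on the compared arrays, stand beside them. Leaving out the wild-type or the MyD88 KO array at 4 h left 155 and 157 genes lower and 241 and 206 higher.

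Myd88, the targeted gene, read 9.30, 9.19 and 9.34 in MyD88 KO cells, 9.56, 9.54 and 9.96 in TRIF KO cells and 9.57, 9.58 and 10.002 in wild type at 0, 1 and 4 h. All 3 MyD88 KO values lie below the other 6. The sources used here do not place the probe set inside or outside the deletion, so its signal checks nothing. Ticam1, the gene of TRIF, was not analysed here for lack of a probe set. Of the 8 analysed genes of the receptor complex and its adaptors, 0 differed 2-fold at 1 h. Their median difference of 0.01 turned its sign under centring (-0.14) and under renewed quantile normalization (-0.01). Tlr4 itself read 7.78 in MyD88 KO cells and 7.64 in wild type at 1 h, and Ly96, which encodes MD-2, read 8.78 in MyD88 KO cells and 8.70 in wild type. Cd14, the LPS co-receptor, read 11.04, 11.14 and 11.42 in MyD88 KO cells, 11.55, 11.73 and 12.16 in TRIF KO cells and 11.17, 11.55 and 12.28 in wild type at 0, 1 and 4 h, and was lower on average over the times by -0.47 ± 0.106 (SE; limma, 9 arrays, adjusted p = 0.0184), a call lost without the 1 h arrays (limma, 7 arrays, adjusted p = 0.143). The TLR2 receptor of bacterial lipoproteins, encoded by Tlr2, stood at 8.11, 8.65 and 10.30 in MyD88 KO cells, 9.61, 9.80 and 10.84 in TRIF KO cells and 9.31, 9.77 and 11.15 in wild type. It was lower in MyD88 KO at each time, by 1.20, 1.12 and 0.85 at 0, 1 and 4 h. TRIF KO and wild type were close to each other at 1 h (9.80 and 9.77).

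Among 13 kinases and ubiquitin ligases of the pathway the median difference was -0.17, with 0 genes past 2-fold. Called lower were 1 in the 7-array fit, Map3k8, and 2 in the 9-array fit, Map3k8 and Ikbke. Map3k8, the kinase TPL2 that feeds the ERK pathway, read 7.58, 7.65 and 7.61 in MyD88 KO cells, 8.04, 8.72 and 8.40 in TRIF KO cells and 8.05, 8.59 and 8.27 in wild type at 0, 1 and 4 h. It differed by -0.95 at 1 h and was the lowest of the list. Ikbke, a kinase of the interferon branch, read 9.02 in MyD88 KO cells and 9.50 in wild type at 1 h. Traf6 and Irak1, the ubiquitin ligase and the kinase directly downstream of MyD88, differed by -0.19 and -0.03.

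Inhibitors of NF-kB were lower without MyD88. All 8 analysed members of the list of IkB proteins and feedback inhibitors were below wild type at 1 h, 3 of them at least 2-fold. Their median was -0.46, against 0.01 over all genes. Those 3 genes were chosen by the same 1 h values, and the other 5 had a median of -0.31. Nfkbie and Nfkbiz were the 2 called lower in the 7-array fit, against 5 in the 9-array fit. Nfkbiz, the inducible nuclear IkB protein IkB-zeta that drives secondary response genes such as Il6, read 5.92, 7.31 and 6.55 in MyD88 KO cells, 7.07, 10.39 and 9.12 in TRIF KO cells and 6.87, 10.73 and 9.47 in wild type at 0, 1 and 4 h. It was 10.7-fold lower at 1 h, the lowest of all genes. A further probe set of Nfkbiz gave a difference of -2.35 at 1 h. In the 7-array fit it was lower by -1.93 ± 0.366 (SE; limma, 7 arrays, adjusted p = 0.0359).

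Tnfaip3 encodes A20, the deubiquitinase that ends NF-kB signalling, and read 7.79, 8.20 and 8.18 in MyD88 KO cells, 8.20, 8.92 and 8.80 in TRIF KO cells and 7.95, 9.27 and 9.07 in wild type at 0, 1 and 4 h. Before LPS the 3 genotypes lay within 0.41 of each other, and at 1 h MyD88 KO was 2.1-fold below wild type. Nfkbie, the gene of IkB-epsilon, read 5.99, 6.47 and 8.03 in MyD88 KO cells, 7.27, 7.70 and 8.51 in TRIF KO cells and 7.06, 7.54 and 9.08 in wild type. Its difference was -1.07, -1.07 and -1.06 at the 3 times, and its induction at 1 h was 0.48 in MyD88 KO cells, 0.44 in TRIF KO cells and 0.49 in wild type. Nfkbia, the main inhibitor IkB-alpha, was high in all arrays and read 12.94 in MyD88 KO cells, 13.42 in TRIF KO cells and 13.48 in wild type at 1 h.

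The 4 analysed NF-kB subunit genes were all below wild type at 1 h (median -0.42), 0 of them by 2-fold. Relb was the 1 gene called lower in the 7-array fit, against 3 in the 9-array fit. Relb read 7.48, 7.62 and 9.02 in MyD88 KO cells, 8.41, 8.62 and 9.47 in TRIF KO cells and 8.20, 8.31 and 9.45 in wild type at 0, 1 and 4 h and was already lower before LPS. Nfkb2, whose product pairs with RelB, differed by -0.55 at 1 h, Rel by -0.30 and Rela by -0.16. Nfkb1 was not analysed here.

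Cytokine transcripts were among the lowest. Tnf, a central inflammatory cytokine, read 8.82, 10.08 and 9.61 in MyD88 KO cells, 9.66, 11.92 and 11.75 in TRIF KO cells and 9.54, 12.67 and 12.46 in wild type at 0, 1 and 4 h. In MyD88 KO it was 1.26 above its own unstimulated level at 1 h and 6.01-fold below wild type at 1 h. Tnfsf9, the ligand of the costimulatory receptor 4-1BB, read 6.21, 7.96 and 6.70 in MyD88 KO cells, 6.49, 8.38 and 7.69 in TRIF KO cells and 6.06, 10.13 and 8.88 in wild type. It was the 1 lower gene that had not been below wild type at 0 h (difference 0.15), and both knockouts were well below wild type at 1 h. The remaining 11 analysed ligands, receptors and TRAF1/BIRC proteins differed by less than 2-fold at 1 h, with a median of -0.09. The whole list had a median of -0.15. Its calls were 2 lower in the 7-array fit, Tnfrsf1b and Birc3, and 6 in the 9-array fit.

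Of 7 analysed genes of the interleukin 1 family, 2 were at least 2-fold lower at 1 h (list median -0.27). The other 5 had a median of -0.10. Il18 was the 1 gene of the family called lower in the 7-array fit, against 4 in the 9-array fit. Il1b, the secreted cytokine made as an inactive precursor, read 6.61, 7.60 and 6.58 in MyD88 KO cells, 6.99, 9.21 and 8.81 in TRIF KO cells and 6.95, 9.83 and 10.27 in wild type at 0, 1 and 4 h. In MyD88 KO it was back at its unstimulated level by 4 h, while TRIF KO and wild type were still raised. Il1a read 6.72, 7.37 and 6.80 in MyD88 KO cells, 6.98, 8.06 and 8.03 in TRIF KO cells and 6.89, 8.67 and 9.06 in wild type, with the same order of genotypes at 1 and 4 h. Il1r1, the signalling receptor of both cytokines, read 7.20 in MyD88 KO cells, 6.74 in TRIF KO cells and 7.96 in wild type at 1 h, and both knockouts were lower.

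Il6 stood near the low end of the arrays at 1 h, at 3.90 in MyD88 KO cells, 4.29 in TRIF KO cells and 4.47 in wild type. Differences at such levels understate a change in transcript. At 4 h Il6 read 3.98 in MyD88 KO cells, 4.31 in TRIF KO cells and 6.95 in wild type. The 9 analysed genes of other interleukins and colony-stimulating factors had a median of -0.19 at 1 h, 0 of them 2-fold lower.

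Chemokines were read by family. The 4 analysed neutrophil-attracting CXC chemokines were all below wild type, with a median of -1.25 and 2 of them 2-fold lower. Those 2, Cxcl1 and Cxcl2, were chosen by these same 1 h values. The other 2, Ppbp and Cxcl5, had a median of -0.20. After renewed quantile normalization 3 of the 4 were below, with Cxcl5, at -0.14 as deposited, at 0.22. Calls were 2 lower in the 7-array fit, Cxcl2 and Ppbp, and 3 in the 9-array fit. Cxcl1 read 5.11, 6.24 and 5.33 in MyD88 KO cells, 5.33, 8.57 and 8.28 in TRIF KO cells and 5.19, 9.17 and 9.44 in wild type at 0, 1 and 4 h, and its levels before LPS lay within 0.22 of each other. At 1 h it was 7.62-fold below wild type, and by 4 h the MyD88 KO level was close to its unstimulated one. Cxcl2, encoded beside Cxcl1 on chromosome 5, read 7.18, 10.12 and 9.10 in MyD88 KO cells, 9.27, 11.90 and 11.88 in TRIF KO cells and 9.01, 12.36 and 12.59 in wild type. It began 1.84 lower in MyD88 KO, was induced by 2.94 in MyD88 KO cells, 2.63 in TRIF KO cells and 3.34 in wild type, and ended 4.72-fold lower at 1 h. The 2 neighbouring genes with the same printed letters thus both reached lower levels, Cxcl2 from a lower start. For Cxcl1 a lower start could go unseen. Its levels before LPS were under 6 in all genotypes, near the low end of the arrays. In the 7-array fit Cxcl2 was lower by -2.66 ± 0.302 (SE; limma, 7 arrays, adjusted p = 0.00655), and Cxcl1 was not called (limma, adjusted p = 0.183).

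The 10 analysed CC chemokines had a median of 0.14, which turned to -0.02 under centring, and 0 of them differed 2-fold. Ccl2 and Ccl7, which attract monocytes, read higher in MyD88 KO. Ccl2 stood at 8.48, 8.82 and 8.09 in MyD88 KO cells, 7.84, 7.95 and 7.95 in TRIF KO cells and 7.72, 7.86 and 7.90 in wild type at 0, 1 and 4 h, and Ccl7 differed by 0.93, 0.70 and 0.03 at those times. Ccl3, an attractant of monocytes and lymphocytes, read 8.96, 9.15 and 8.61 in MyD88 KO cells, 9.23, 9.91 and 10.56 in TRIF KO cells and 8.73, 9.86 and 11.53 in wild type. It was lower in MyD88 KO at 1 h by 0.71, with TRIF KO and wild type within 0.05. In the 7-array fit 0 members were called (limma, adjusted p from 0.0629 for Ccl24 to 0.214 for Ccl7 among the 4 that follow), and in the 9-array fit 4 were higher in MyD88 KO, Ccl2, Ccl6, Ccl7 and Ccl24.

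Immediate early transcription factors were lower by less than 2-fold. Egr1, a zinc finger factor induced through ERK, read 8.77, 10.21 and 8.28 in MyD88 KO cells, 8.85, 10.97 and 8.51 in TRIF KO cells and 8.19, 11.01 and 8.002 in wild type at 0, 1 and 4 h. It was 0.58 above wild type before LPS and 0.79 below it at 1 h, and its induction was 1.45 in MyD88 KO cells, 2.12 in TRIF KO cells and 2.82 in wild type. Among 19 genes of the EGR, IER and related list 0 were 2-fold lower, and the median was -0.25. The 7-array fit called 2 lower, Ier3 and Gadd45a, and 1 higher, Klf4, and the 9-array fit 3 lower and Klf4 higher. Ier3, an early survival gene, read 9.14 in MyD88 KO cells, 10.42 in TRIF KO cells and 9.94 in wild type at 1 h with the TRIF KO level above wild type.

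The AP-1 family, 12 genes, had a median of -0.18, with 0 members called in the 7-array fit and 4 called lower in the 9-array fit. Junb read 9.44 in MyD88 KO cells, 10.13 in TRIF KO cells and 10.15 in wild type at 1 h, Fos 11.42 in MyD88 KO cells, 11.91 in TRIF KO cells and 12.01 in wild type, and Maff, a small Maf protein, 7.02 in MyD88 KO cells, 7.67 in TRIF KO cells and 7.82 in wild type. Jun and Atf3 differed by -0.14 and -0.01, so the difference at 1 h was not shared by the whole family. For Fos the sign turned with time, at -0.13, -0.59 and 0.66 at 0, 1 and 4 h.

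Genes that limit the response by degrading messages or blocking signals were among the lower ones. Zc3h12a encodes Regnase-1, an endonuclease that destroys cytokine mRNAs, and read 6.23, 6.27 and 6.35 in MyD88 KO cells, 6.61, 7.50 and 7.46 in TRIF KO cells and 6.49, 7.78 and 7.39 in wild type at 0, 1 and 4 h. Its MyD88 KO level did not move with LPS by more than 0.12 at either time. Zfp36, the AU-rich element binding protein tristetraprolin, read 11.34 in MyD88 KO cells, 12.05 in TRIF KO cells and 12.15 in wild type at 1 h, a smaller difference of -0.81. The remaining 4 analysed decay factors differed by at most 0.23 after rounding.

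Socs3, an inhibitor of STAT3 signalling, read 7.57, 7.95 and 7.67 in MyD88 KO cells, 7.86, 8.91 and 9.29 in TRIF KO cells and 7.66, 9.53 and 9.51 in wild type at 0, 1 and 4 h. Its induction at 1 h was 0.38 in MyD88 KO cells, 1.05 in TRIF KO cells and 1.87 in wild type. Pde4b read 6.53, 7.51 and 7.83 in MyD88 KO cells, 7.66, 8.84 and 8.98 in TRIF KO cells and 7.31, 8.92 and 9.65 in wild type. It began 0.78 lower and was 2.65-fold lower at 1 h, while TRIF KO and wild type lay within 0.08, and it was lower in the 7-array fit by -1.30 ± 0.222 (SE; limma, 7 arrays, adjusted p = 0.0268). A further probe set of Pde4b gave -0.81 at 1 h. The phosphatases Dusp1 and Dusp2, which inactivate MAP kinases, read 10.30 in MyD88 KO cells and 11.22 in wild type and 8.58 in MyD88 KO cells and 9.37 in wild type. Of the 15 analysed feedback genes 2 were 2-fold lower (median -0.22). The other 13 had a median of -0.13. Pde4b was the 1 gene called lower in the 7-array fit, against 5 in the 9-array fit.

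**Figure D3:**
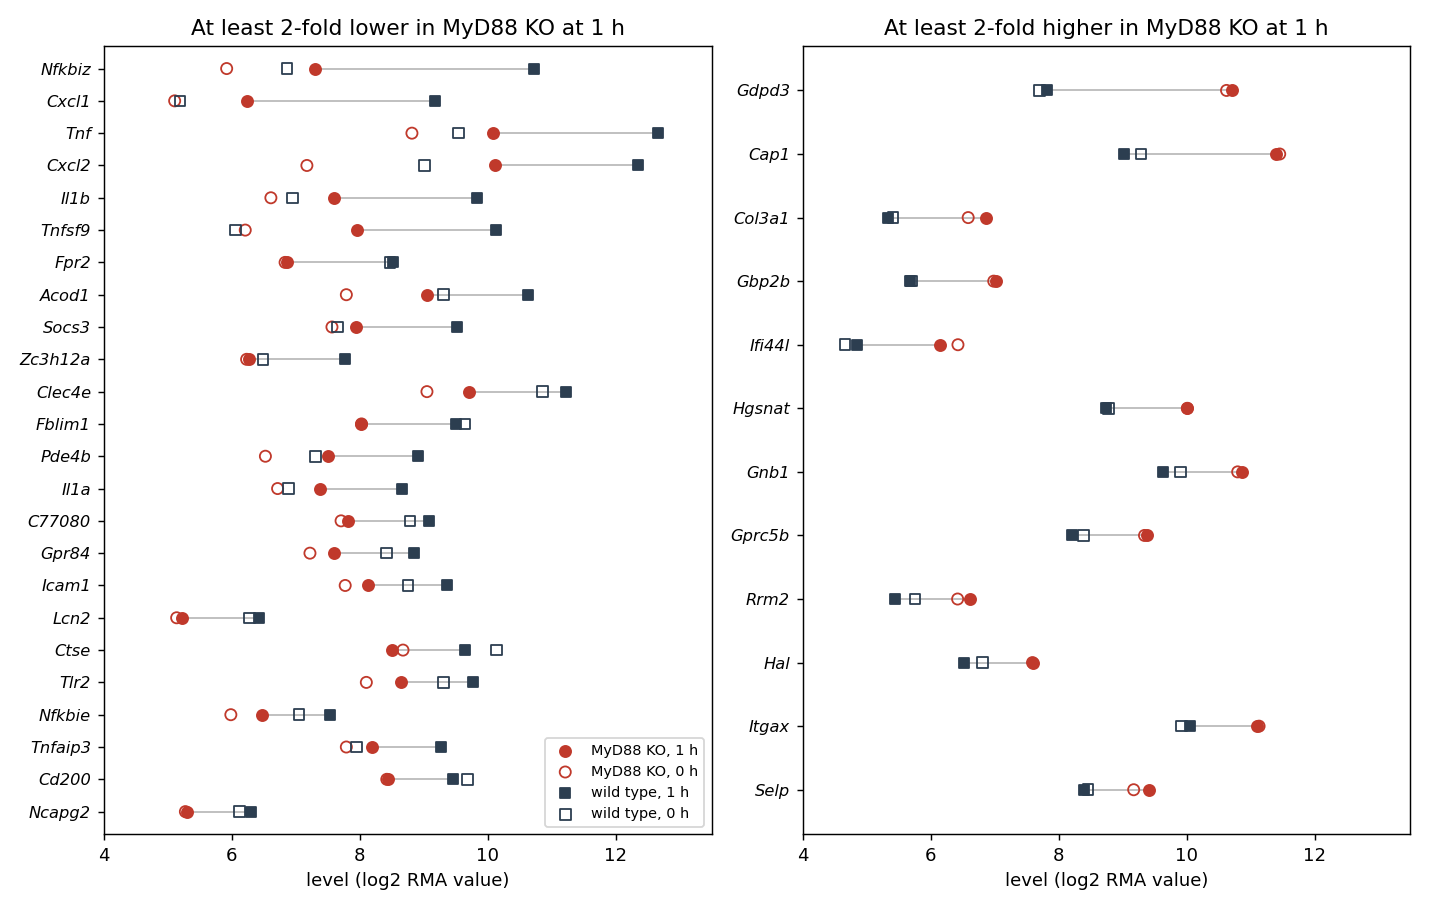
Levels (log2 RMA values, 1 array each) of the 24 genes at least 2-fold lower (left) and the 12 at least 2-fold higher (right) in MyD88 KO at 1 h. Filled circles are MyD88 KO and filled squares wild type at 1 h, and open symbols the same genotypes at 0 h. For Fpr2, Fblim1 and Gdpd3 the open and filled symbols of a genotype nearly coincide, while for Cxcl1, Tnf and Tnfsf9 they lie far apart.

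Genes were also picked on TRIF KO arrays alone, since a pick on the wild-type 1 h array would favour a lower MyD88 KO value. A pick on cells without TRIF has a limit of its own. It can leave out genes whose early induction needs TRIF and so favour genes induced through MyD88. How far the pick set the signs below was not tested. The 14 genes at least 2-fold higher at 1 h than at 0 h in TRIF KO were Nfkbiz, Cxcl1, Tnf, Cxcl2, Il1b, Tnfsf9, Socs3, Pde4b, Il1a, Dusp1, Zfp36, Ier3, Egr1 and Junb. All 14 were lower in MyD88 KO than in wild type at 1 h, with a median difference of -1.49 (from -3.42 to -0.70), and 9 were at least 2-fold lower. Over all analysed genes the median was 0.01 and 47.5% lay below 0. Before LPS the median difference of the 14 was -0.22. Their median level in MyD88 KO at 1 h was 35.6% of that in wild type on the linear scale.

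Induction, the level at 1 h minus that at 0 h within a genotype, had a median of 0.98 in MyD88 KO, 1.59 in TRIF KO and 2.34 in wild type. It was above 0 in MyD88 KO for all 14 genes and at least 2-fold for 6, from 0.38 for Socs3 to 2.94 for Cxcl2. In each of the 14 it was smaller than in wild type. With the pick made on wild type, 24 genes had a median difference of -1.03, all 24 below wild type and 12 at least 2-fold. Nothing is read from their signs, because the wild-type 1 h array enters both this pick and the difference.

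**Figure D4:**
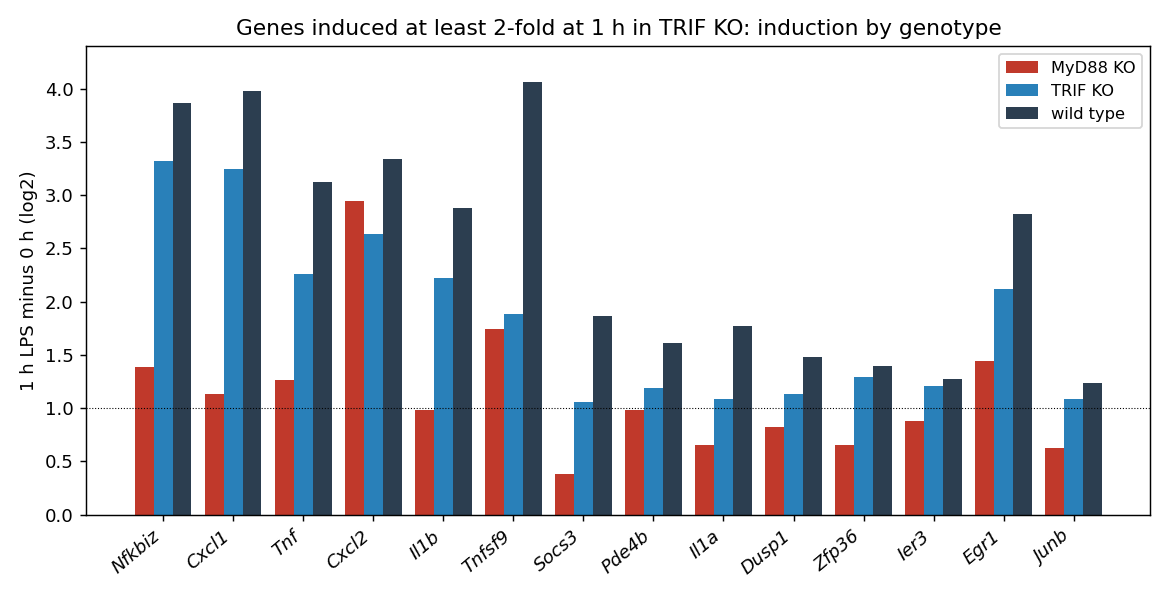
Induction (log2 level at 1 h of LPS minus level at 0 h, 1 array each) of the 14 genes at least 2-fold induced in TRIF KO, with bars for MyD88 KO, TRIF KO and wild type from left to right. The dotted line marks 2-fold; the MyD88 KO bar is shorter than the wild-type bar for all 14 genes and reaches the line for 6.

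Of 22 analysed macrophage effector genes 6 were 2-fold lower at 1 h, of which all but Icam1 had also been 2-fold lower before LPS. The list median was -0.52. Those 6 were chosen by the same 1 h values, and the other 16 had a median of -0.23. The 7-array fit called 10 lower and 1, Arg1, higher, and the 9-array fit 12 lower and Arg1 higher. Fpr2, a formyl peptide receptor that guides cells to bacterial products, read 6.84, 6.86 and 8.81 in MyD88 KO cells, 8.80, 8.65 and 11.20 in TRIF KO cells and 8.48, 8.53 and 11.22 in wild type at 0, 1 and 4 h. At each time the MyD88 KO level was below those of both other genotypes, whose own levels at 0 and 1 h differed by at most 0.15 after rounding. In the 7-array fit it was lower by -2.03 ± 0.157 (SE; limma, 7 arrays, adjusted p = 0.00181). Clec4e, the receptor Mincle for mycobacterial glycolipid, read 9.05, 9.72 and 12.07 in MyD88 KO cells, 10.47, 10.85 and 12.73 in TRIF KO cells and 10.86, 11.22 and 13.07 in wild type, and after 1 h of LPS the MyD88 KO level was still below the wild-type level before it. In the 7-array fit it was lower by -1.40 ± 0.177 (SE; limma, 7 arrays, adjusted p = 0.00928).

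Acod1, the enzyme that makes itaconate, read 7.79, 9.05 and 12.21 in MyD88 KO cells, 8.81, 9.50 and 11.69 in TRIF KO cells and 9.31, 10.64 and 13.04 in wild type at 0, 1 and 4 h. It was induced by 1.26 in MyD88 KO cells, 0.69 in TRIF KO cells and 1.33 in wild type at 1 h, so MyD88 KO kept the induction and lacked the starting level. TRIF KO lay between MyD88 KO and wild type at 0 and 1 h and below both at 4 h. Gpr84, which senses medium-chain fatty acids, read 7.22, 7.60 and 9.55 in MyD88 KO cells, 8.26, 8.46 and 10.31 in TRIF KO cells and 8.42, 8.85 and 11.09 in wild type, and differed by -1.20, -1.25 and -1.53 from wild type at the 3 times. Icam1, the adhesion molecule that binds leukocyte integrins, read 8.12 in MyD88 KO cells, 9.12 in TRIF KO cells and 9.37 in wild type at 1 h. It had a difference of -0.98 at 0 h, just short of 2-fold, and was called in the 7-array fit (limma, adjusted p = 0.0268).

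Ptgs2, the inducible cyclooxygenase, read 5.59, 5.67 and 5.67 in MyD88 KO cells, 5.38, 6.03 and 6.65 in TRIF KO cells and 5.47, 6.62 and 8.40 in wild type at 0, 1 and 4 h and differed by -0.95 at 1 h. Its MyD88 KO level hardly moved with LPS. Arg1, arginase, was the effector gene with higher levels without MyD88, at 12.77, 12.86 and 12.58 in MyD88 KO cells, 12.60, 12.61 and 12.35 in TRIF KO cells and 11.92, 11.92 and 11.60 in wild type, and both knockouts were above wild type.

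The last 6 lower genes follow, of which Lcn2 is also on the list of effector genes above. Lcn2, lipocalin 2, which withholds iron from bacteria, read 5.23 in MyD88 KO cells, 5.84 in TRIF KO cells and 6.43 in wild type at 1 h, below the level of 6 on every knockout array. With values under 6 raised to 6 its difference of -1.20 became -0.43, short of 2-fold. Cd200, a surface protein that restrains myeloid cells through its receptor, read 8.44 in MyD88 KO cells, 9.07 in TRIF KO cells and 9.46 in wild type. Ctse, the aspartic protease cathepsin E, read 8.51 in MyD88 KO cells, 9.03 in TRIF KO cells and 9.65 in wild type on its brightest probe set, while another gave a difference of 0.26, so its direction depends on the probe set. Ncapg2, a subunit of condensin II, was low throughout, at 5.30 in MyD88 KO cells, 5.51 in TRIF KO cells and 6.31 in wild type, and its difference became -0.31 with values under 6 raised to 6.

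Fblim1, an adaptor of filamin and integrin signalling, read 8.03, 8.02 and 7.77 in MyD88 KO cells, 7.49, 7.44 and 6.84 in TRIF KO cells and 9.65, 9.51 and 8.55 in wild type at 0, 1 and 4 h. C77080 read 7.71, 7.81 and 7.73 in MyD88 KO cells, 7.44, 7.47 and 7.68 in TRIF KO cells and 8.79, 9.09 and 8.16 in wild type. At 1 h these were the 2 of the 24 lower genes whose TRIF KO level was below that of MyD88 KO. The comparison of TRIF KO with wild type at 1 h shares the wild-type array, and it had 8 genes 2-fold lower and 7 higher. In it Fblim1 and C77080 differed by -2.07 and -1.63, and Tnfsf9 and Acod1 by -1.75 and -1.14.

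The 12 higher genes showed no 2-fold response to LPS at 1 h in wild type. All 12 were also above wild type at 0 h, 7 of them 2-fold, and at 4 h, 9 of them 2-fold. Gdpd3, a lysophospholipase D, read 10.63, 10.70 and 10.51 in MyD88 KO cells, 11.22, 11.07 and 10.94 in TRIF KO cells and 7.71, 7.82 and 7.31 in wild type at 0, 1 and 4 h. Cap1, a regulator of actin turnover, read 11.46, 11.40 and 11.34 in MyD88 KO cells, 11.41, 11.29 and 11.32 in TRIF KO cells and 9.29, 9.02 and 8.69 in wild type. In both genes TRIF KO was as high as MyD88 KO to within 0.60, and wild type stood apart. In the 7-array fit Gdpd3 was higher by 3.06 ± 0.0915 (SE; limma, 7 arrays, adjusted p = 5.7e-06) and Cap1 by 2.41 ± 0.126 (SE; limma, 7 arrays, adjusted p = 0.000162). In all, 6 of the 12 were also 2-fold higher in TRIF KO than on the same wild-type array at 1 h.

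Hgsnat, a lysosomal acetyltransferase of heparan sulfate breakdown, was at least 2-fold higher than wild type in MyD88 KO at 1 h and less than 2-fold higher in TRIF KO, at 10.01, 10.002 and 9.96 in MyD88 KO cells, 8.91, 8.93 and 8.68 in TRIF KO cells and 8.78, 8.75 and 8.16 in wild type at 0, 1 and 4 h. Gnb1, a G protein beta subunit, read 10.87 in MyD88 KO cells, 11.10 in TRIF KO cells and 9.63 in wild type at 1 h, and Gprc5b, an orphan receptor, 9.38 in MyD88 KO cells, 9.14 in TRIF KO cells and 8.20 in wild type, with both knockouts above wild type in each. Itgax, the integrin CD11c, read 11.10 in MyD88 KO cells, 11.27 in TRIF KO cells and 10.05 in wild type, and Selp, P-selectin, 9.41 in MyD88 KO cells, 9.49 in TRIF KO cells and 8.40 in wild type. Hal, histidine ammonia-lyase, read 7.60 in MyD88 KO cells, 7.06 in TRIF KO cells and 6.53 in wild type. Other probe sets gave differences of 0.49 and -0.15 for Gnb1, 0.19 for Gprc5b, 0.66 for Selp and 2.96 for Cap1.

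Interferon-induced genes read slightly higher without MyD88 at 0 and 1 h, and as a list not at 4 h. Gbp2b, a guanylate-binding protein, read 6.99, 7.03 and 8.29 in MyD88 KO cells, 5.70, 5.62 and 5.89 in TRIF KO cells and 5.70, 5.67 and 5.68 in wild type at 0, 1 and 4 h. Ifi44l read 6.43, 6.15 and 6.67 in MyD88 KO cells, 4.63, 4.51 and 4.80 in TRIF KO cells and 4.66, 4.84 and 4.95 in wild type, with the levels of the other genotypes near the low end of the arrays. Its 2 other probe sets, both dim, gave 1.45 and -0.08, and with values under 6 raised to 6 the difference of 1.31 became 0.15, short of 2-fold. Of the 34 analysed genes on the interferon list, 32 were above wild type at 1 h, 0 of them 2-fold, with a median of 0.22 (0.17 at 0 h and 0.002 at 4 h). Under centring 19 of 34 were above wild type and the median was 0.07, and after renewed quantile normalization 30 were.

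Oas3 was the 1 gene of the 34 called higher in the 7-array fit (limma, adjusted p = 0.0107), and in the 9-array fit 6 were higher, Oasl2, Oas1a, Oas3, Usp18, Dhx58 and Irf7, and 1, Irf1, lower. Oasl2, an antiviral protein of the oligoadenylate synthetase family, read 8.60, 8.61 and 9.30 in MyD88 KO cells, 7.71, 7.57 and 7.64 in TRIF KO cells and 8.02, 7.77 and 8.71 in wild type at 0, 1 and 4 h. Usp18, which removes ISG15 and dampens interferon signalling, read 8.15 in MyD88 KO cells, 7.20 in TRIF KO cells and 7.35 in wild type at 1 h, and Irf7, the factor that amplifies interferon production, 9.05 in MyD88 KO cells, 8.37 in TRIF KO cells and 8.38 in wild type. Irf1, a transcription factor induced through NF-kB, was among the induced genes. It read 9.33, 9.87 and 10.03 in MyD88 KO cells, 9.58, 10.41 and 10.17 in TRIF KO cells and 9.45, 10.70 and 10.89 in wild type, was induced by 0.54 in MyD88 KO cells, 0.83 in TRIF KO cells and 1.25 in wild type at 1 h, and was 0.83 below wild type then.

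Transcripts of DNA replication and cell division were slightly higher in MyD88 KO at 0, 1 and 4 h. Over 24 analysed genes the median difference was 0.26 at 1 h, 0.31 at 0 h and 0.17 at 4 h. At 1 h 1 gene was 2-fold higher, the other 23 had a median of 0.22, and under centring the list median was 0.11. The 7-array fit called 5 higher, Mcm6, Mcm7, Rrm2, Top2a and Birc5, and the 9-array fit 11 (8 after centring). Rrm2, a subunit of ribonucleotide reductase, read 6.42, 6.62 and 6.32 in MyD88 KO cells, 5.81, 5.99 and 5.80 in TRIF KO cells and 5.75, 5.45 and 5.56 in wild type at 0, 1 and 4 h on its brightest probe set, with others at 0.45 and 0.41 at 1 h, and the difference became 0.62 with values under 6 raised to 6. Mcm7 and Mcm6, parts of the replicative helicase, read 8.13 in MyD88 KO cells and 7.34 in wild type and 8.60 in MyD88 KO cells and 8.01 in wild type at 1 h. Whether more cells of one kind or more transcript per cell lies behind such a difference cannot be told apart in these bulk samples, here and for every gene above.

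Oxidative stress genes controlled by NRF2 had a median of -0.36, -0.28 and -0.41 at 0, 1 and 4 h over 11 analysed, 0 of them 2-fold lower at 1 h. The 7-array fit called 3 lower, Slc7a11, Srxn1 and Gclm, and the 9-array fit 7. Slc7a11, the cystine transporter, read 7.56, 7.54 and 8.99 in MyD88 KO cells, 7.95, 7.96 and 9.81 in TRIF KO cells and 8.19, 8.25 and 10.43 in wild type at 0, 1 and 4 h, and Srxn1, sulfiredoxin, differed by -0.58 at 1 h. Lipid genes (14, median 0.13, turning to -0.02 under centring), antigen presentation (17, median -0.07) and coagulation and matrix protease genes (16, median within 0.01 of 0) had 0 members past 2-fold.

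**Figure D5:**
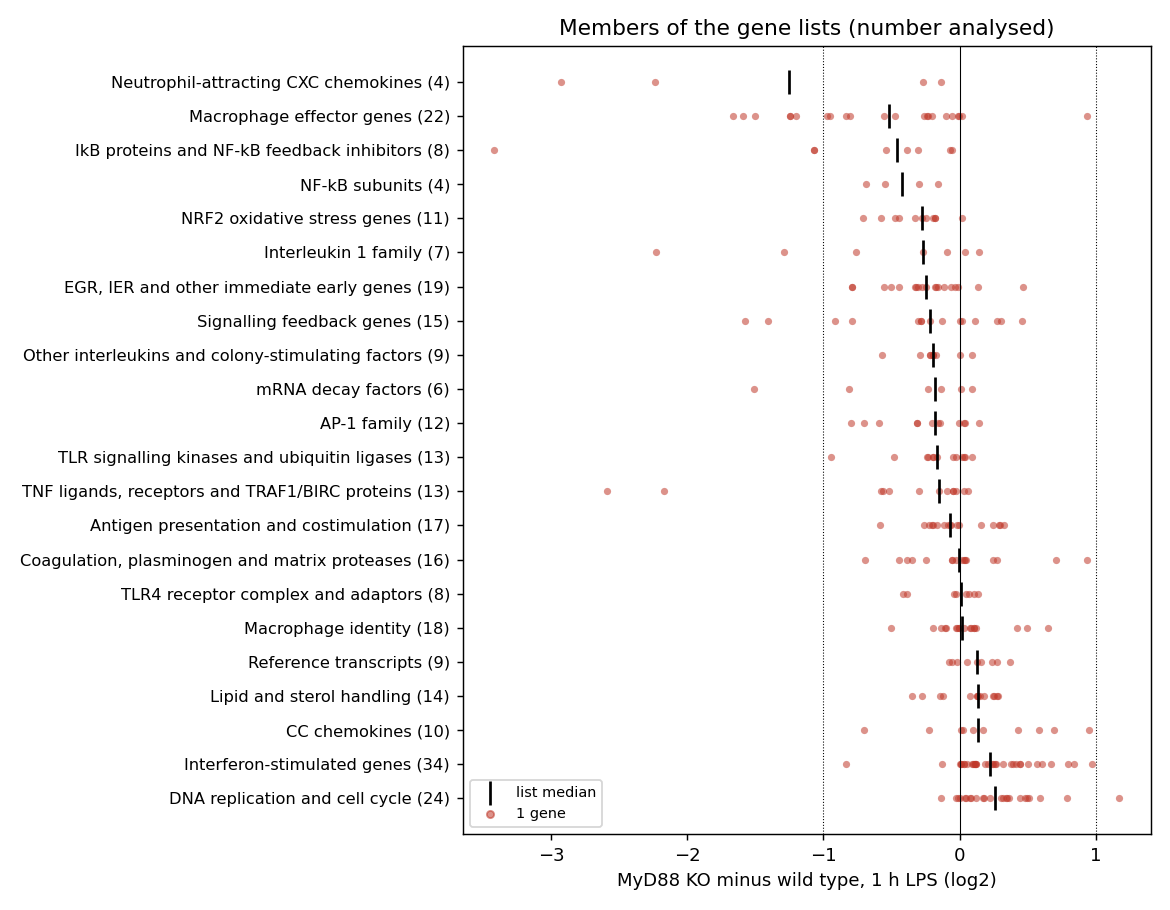
MyD88 KO minus wild type at 1 h of LPS (log2, 1 array a side) for the members of 22 gene lists, with the number analysed in brackets. Each point is a gene and each bar a list median; the dotted lines mark 2-fold. The medians run from -1.25 for the neutrophil-attracting CXC chemokines to 0.26 for DNA replication and cell cycle, and 7 lists hold genes past the left dotted line. Genes past a dotted line were chosen by these same values, and they enter the list medians.

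Markers were read for the cells a peritoneal preparation could hold. The 8 macrophage markers averaged 11.87 in MyD88 KO and 11.77 in wild type at 1 h, and 18 macrophage identity genes had a median difference of 0.02 (-0.14 under centring, -0.02 after quantile normalization). Among 7 fibroblast markers the member gene Col3a1, a fibrillar collagen, read 6.59, 6.86 and 6.75 in MyD88 KO cells, 6.05, 6.42 and 6.44 in TRIF KO cells and 5.42, 5.34 and 5.10 in wild type, and its difference at 1 h became 0.86 with values under 6 raised to 6. Of the 6 others 5 were above wild type at 1 h (3 under centring), with a median difference of 0.32. The mean level of all 7 at 0, 1 and 4 h was 7.41, 7.46 and 7.37 in MyD88 KO cells, 7.29, 7.29 and 7.44 in TRIF KO cells and 6.91, 6.96 and 6.96 in wild type. Both fits called 4 of them higher, Col1a2, Col3a1, Dcn and Sparc, and a further Col3a1 probe set, near a level of 5, gave -0.07. Beside Itgax, which also marks dendritic cells, Flt3, Zbtb46 and Cd209a differed by -0.05, -0.10 and 0.22.

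B cell markers (6, median -0.20) averaged 7.88 in MyD88 KO and 7.97 in wild type, with Ighm at 0.60, and Cd79a and Ms4a1 called lower in the 9-array fit and 0 in the 7-array fit. The 8 neutrophil markers averaged 7.35 in MyD88 KO and 7.43 in wild type, and the 7 T or NK cell markers 6.66 in MyD88 KO and 6.71 in wild type. The 4 erythroid markers averaged 6.93 in MyD88 KO and 6.94 in wild type, and the 4 mast cell markers 7.20 in MyD88 KO and 7.06 in wild type. The 2 eosinophil markers averaged 5.80 in MyD88 KO and 5.98 in wild type, and the 3 mesothelial markers 7.08 in MyD88 KO and 6.89 in wild type. On this log2 scale no marker is at 0. The part of other cell types in the differences was not tested.

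The medians of the 9 arrays lay between 7.01 and 7.07, and the 2 compared arrays correlated at 0.995 across probe sets. Of the 36 genes past 2-fold, 13 had further probe sets, 17 in all, of which 13 had the same sign, 7 of them 2-fold, and 4 the opposite one. Icam1 was the 1 gene of the 36 on chromosome 9, which carries Myd88. Precision is limited by the number of arrays throughout.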

How the data were processed

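Total RNA of thioglycollate-elicited peritoneal macrophages was biotin-labelled and hybridised to Affymetrix arrays with 22690 probe sets, 1 array for each of 3 genotypes at 3 times. The authors deposited log2 expression values, and the submitters' processing notes name RMA. This method subtracts background, equalises the distributions of arrays and summarises probes. Neither its version nor a joint normalization of the 9 arrays is stated in the sources used here. Equalised distributions would hide a shift common to most genes.

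The deposited log2 values were used as they are. Probe sets were named from the platform annotation, with symbols updated through RefSeq (GRCm38.p6): 20393 had 1 gene symbol, 691 several and 1606 were not listed, and 20364 were found in RefSeq. Genes with more than 1 probe set numbered 4958. Differences between 2 arrays were counted past 2-fold (log2 of 1) without a test. limma 3.58.1 in R 4.3.3 (lmFit and eBayes without trend, genotype plus time) was fitted to 9 arrays (4 residual degrees of freedom, prior 8.39) and to 7 (2 and 6.11). Benjamini-Hochberg adjustment ran over 10032 genes, with a threshold of 0.05. The fit was also run on data simulated from the same genotype plus time model. That model holds no genotype difference that changes with time, so the run does not speak for genes with such a difference. Tables were handled in Python 3.11.15 with pandas 2.3.3.

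Members and gene lists were chosen with earlier results of these data known. The rule for named genes took Myd88, the 15 lowest and 10 highest genes at 1 h, genes induced 2-fold at 1 h in TRIF KO or wild type, and from each list up to 4 genes by size of difference. Other list members and markers were named for their role after their values were seen. Alternatives changed the filter, the probe set rule, the scaling, low values, the threshold and the arrays fitted.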

Additional observations from a re-analysis of the deposited data

Results flagged for a closer look

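The induction of Gdap10 ran in opposite directions in MyD88 KO and wild type. Its level at 1 h minus that at 0 h was -0.22 in MyD88 KO and 1.26 in wild type, with 1 array behind each level. Among the 24 genes at least 2-fold higher at 1 h than at 0 h in wild type, it was the 1 gene with a lower level after LPS in MyD88 KO. Gdap10 read 8.29, 8.07 and 8.82 at 0, 1 and 4 h in MyD88 KO cells, 8.11, 8.71 and 8.69 in TRIF KO cells and 7.80, 9.06 and 9.21 in wild type. The difference in induction was not tested, since no group has a replicate, and in the 9-array fit the gene was not called (limma, adjusted p = 0.444).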

How the results depend on the processing

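Among the alternatives run, the count of 24 genes 2-fold lower lay between 20 and 35, except at a 1.5-fold threshold, which gave 72 lower and 66 higher. The 12 higher genes became 7 with a mean level of at least 7 and 6 with the mean of all probe sets of a gene, and otherwise lay between 9 and 13. Of the lower genes, 11 to 17 were also lower at 0 h. The median difference of genes induced in TRIF KO was -2.33 after centring on reference transcripts (11 genes), -0.83 for a 1.5-fold pick (35 genes), -1.03 for a pick on wild type and -1.25 for inductions in place of levels. The 9-array limma fit called 23 lower and 72 higher genes without time as a covariate, 178 lower with low values raised to 6, and 116 lower and 162 higher without the MyD88 KO and wild-type arrays at 1 h. Leaving out each array in turn gave 155 to 291 lower and 206 to 615 higher, both lowest counts without a 4 h array of MyD88 KO or wild type. The fits on fewer arrays have fewer degrees of freedom, and the cause of the other shifts was not tested. Centring turned the balance of calls in the 9-array fit, to 317 lower and 201 higher, against 269 lower and 457 higher as deposited. The median of the genes induced in TRIF KO kept its sign in these alternatives, of which the pick on wild type favours that sign by its use of a compared array. Under centring the median over all genes turned sign. So did those of the receptor complex, CC chemokine, lipid and macrophage identity lists. No difference of a named gene past 2-fold changed sign. Lcn2, Ncapg2, Ifi44l, Rrm2 and Col3a1 fell short of 2-fold with values under 6 raised to 6. Values of the named genes were also compared with the gene's residual SD in the limma fit. Under the scaling, probe set and low-value alternatives 105 moved by more than it and 336 by less. No paired analysis was possible because each group has 1 array and no replicate numbers are shared; the fits match genotypes by time. The number of arrays, and signal near the low end for genes such as Il6, limit what can be read.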

Other observations

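Several effector genes outside the rule for named genes, chosen after their values were seen, were lower in MyD88 KO before and after LPS by less than 2-fold at 1 h. Marco, a scavenger receptor for bacteria, read 8.25, 8.36 and 8.55 at 0, 1 and 4 h in MyD88 KO cells, 9.29, 9.39 and 9.94 in TRIF KO cells and 9.52, 9.33 and 9.86 in wild type. Sod2, the mitochondrial superoxide dismutase, read 10.10, 10.37 and 11.61 in MyD88 KO cells, 10.93, 11.16 and 12.09 in TRIF KO cells and 11.01, 11.17 and 12.33 in wild type. Olr1, a receptor of oxidised lipoprotein, differed by -0.89, -0.83 and -0.71 from wild type at the 3 times. In each of these genes TRIF KO lay within 0.25 of wild type at 0 and 1 h.

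Thbs1, thrombospondin, stood 1.65 above wild type in unstimulated MyD88 KO cells, 0.93 above it at 1 h and 0.23 at 4 h. Thbd, thrombomodulin, an anticoagulant receptor, ran the other way in time, at 0.11, 0.71 and 1.10.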
